A study of Mus musculus with 6 samples.

Results

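The Clk splicing kinases and their Srpk partners were described in mouse brain RNA prepared by either of 2 extraction methods. The group holds 6 genes, Clk1, Clk2, Clk3, Clk4, Srpk1 and Srpk2. Each was matched by its symbol to 1 Ensembl gene, so they are 6 of 22584 genes in the count table, and all 6 passed the filter on low counts. The group was chosen by the difference in CPM between the methods reported below. Clk1 and Clk4, known for retained introns, had stood out as lower in the kit (AllPrep) libraries, and the other 4 were set beside them. For that reason the difference of each member between the methods is a description here, with no test.

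The samples were brain tissue of wild-type mice, with genotype WT in all 6 libraries. AllPrep libraries, 3 in number, hold RNA from a column kit that takes DNA, RNA and protein from 1 lysate. TRIzol libraries, 3 in number and labelled as the control, hold RNA from a phenol and guanidine reagent followed by isopropanol precipitation. The labels give neither age, sex, strain nor brain region, and do not say whether libraries came from separate animals. The p-values given here thus compare 6 libraries and may reflect technical spread alone.

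CLK kinases (CDC-like kinases) sit in the nucleus and phosphorylate SR proteins, the serine- and arginine-rich splicing factors that help choose exons. SRPK kinases (SR protein kinases) act mainly in the cytoplasm, where they phosphorylate the same proteins and so allow them to be imported into the nucleus. Clk1 and Clk4 transcripts are known for keeping some introns: such RNAs stay in the nucleus as a reserve that can be spliced later, for example after stress or a change in temperature. The counts used here are per gene, so spliced and intron-keeping transcripts of a gene were not separated.

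In the GENCODE vM21 annotation (build GRCm38), each of the 6 genes had transcripts classed as retained-intron, ones that keep an intron of a coding transcript. They were 7 of 13 annotated transcripts for Clk1, 7 of 14 for Clk4, 4 of 9 for Clk3, 4 of 11 for Clk2, 6 of 13 for Srpk1 and 3 of 10 for Srpk2. Among tested genes with annotation, 52.0% had at least 1 such transcript, and 1.95% had as many as Clk1 and Clk4 or more. By share the pair was less unusual. Leaving the 6 members out, such transcripts made up 50% or more of the annotation in 2249 of 16213 genes. Introns 3 and 4 of the coding transcript, of 12 in each Clk gene, were kept whole by at least 1 annotated transcript in all 4 of them. Others were kept in single Clk genes, namely intron 6 in Clk1, introns 7 and 8 in Clk4 and intron 11 in Clk2. Srpk1 kept introns 9, 10 and 14, and Srpk2 intron 3. Introns 3 and 4 measured 871 and 387 bases in Clk1, 1055 and 391 in Clk4, 2100 and 276 in Clk3, and 691 and 346 in Clk2. Such transcripts thus occurred in every member, and were most numerous, at 53.8% and 50.0% of annotated transcripts, in Clk1 and Clk4, against at most 46.2% in the other 4.

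**Figure D1:**
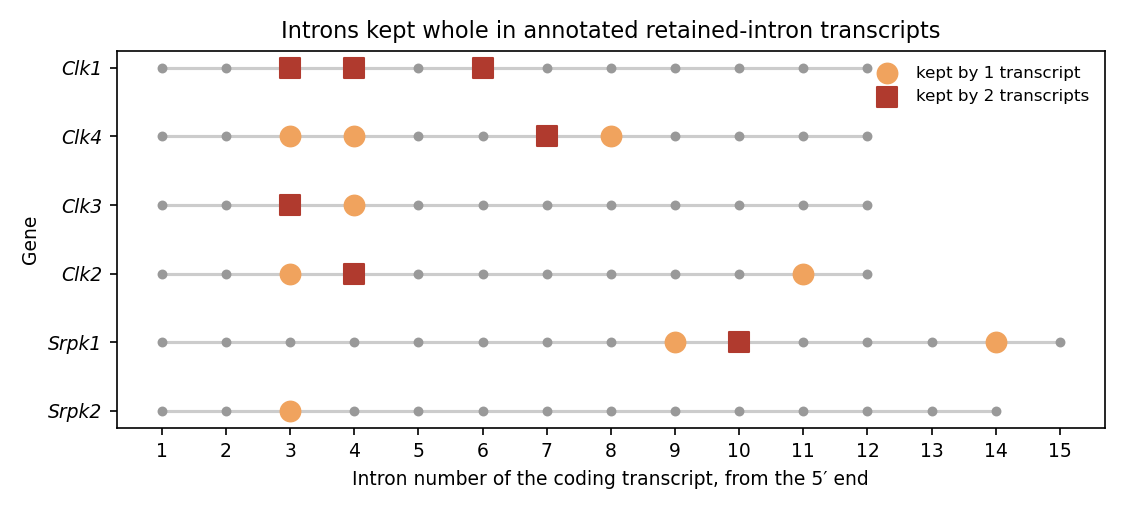
Introns kept whole in annotated retained-intron transcripts, by intron number of the coding transcript (x axis) for the 6 kinase genes (y axis). Grey dots are introns, circles are introns kept by 1 transcript and squares those kept by 2; introns 3 and 4 are marked in all 4 Clk genes.

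The start of intron 4 is shown because, of the starts of introns 3 and 4, it was the more alike between Clk1 and Clk4. Each window has the last 15 exon bases in lower case and the first 15 intron bases in capitals, 5′ to 3′, read from the GENCODE transcript that keeps the intron.
Clk1 intron 4: tactaagtgcaagatGTATAGAATATTTTT
Clk4 intron 4: ttctaagagcaagatGTATAGAATATTTTT
Clk3 intron 4: ggctccaagagcgatGTACAGCCACCTTTC
Clk2 intron 4: ggctacaagagcgatGTACAAGCCAAATCG
The windows lie in GRCm38 at chr1:58420106-58420135 (minus strand) for Clk1, chr11:51273154-51273183 (plus) for Clk4, chr9:57758612-57758641 (minus) for Clk3 and chr3:89169688-89169717 (plus) for Clk2, each within the coding part of the gene. Clk1 and Clk4 were identical at 15 of 15 intron bases and 28 of 30 bases in all. The other pairs of Clk genes shared 6 to 8 of the 15 intron bases. Over all 30 bases Clk2 and Clk3 shared 21, and the remaining pairs 13 to 15.

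The start of intron 3 is given in the same layout because its intron bases paired Clk2 with Clk3 as well as Clk1 with Clk4. For intron 4, Clk2 and Clk3 shared 7 of 15 intron bases but 21 of all 30 window bases.
Clk1 intron 3: caccattcacacgggGTATGAGTGCCTTTT
Clk4 intron 3: catcagtcgcattcgGTATGAGTGGTTTGT
Clk3 intron 3: agcagtgcttcctcgGTGAGTGGTGGCCAG
Clk2 intron 3: agccgctcatcttcaGTGAGTGCCAGCCCA
In GRCm38 these windows lie at chr1:58421068-58421097 (minus), chr11:51272008-51272037 (plus), chr9:57760809-57760838 (minus) and chr3:89168909-89168938 (plus). Clk1 and Clk4 shared 12 of 15 intron bases, Clk2 and Clk3 shared 10, and each pair across those classes shared 4 or 5. All of these introns begin with GT and end with AG. Over whole coding sequences, Clk1 and Clk4 were identical at 74.6% of aligned bases, Clk2 and Clk3 at 70.6%, Srpk1 and Srpk2 at 70.9%, and Clk pairs across the classes at 65.1% to 66.9%. The longest run of identical coding bases shared by Clk1 and Clk4 was 34, where reads were 150 bases long. Untranslated sequence and whole introns were not compared, and whether reads could fit both genes was not tested.

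Clk1 encodes the founding member of the CLK family. Its level, in CPM (a gene's counts scaled to a common library total), was 94.3, 81.2 and 83.8 in AllPrep replicates 1 to 3, against 168, 144 and 140 in TRIzol replicates 1 to 3. Every AllPrep library lay below every TRIzol library, and AllPrep averaged 86.5 ± 6.93 CPM against 151 ± 14.8 CPM in TRIzol (SD, n = 3 each), or 57.3%. In edgeR's fit across all genes the log2 fold change, AllPrep over TRIzol, was -0.77 (SE 0.10).

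Clk4, the closest relative of Clk1, had 55.6, 55.2 and 52.1 CPM in AllPrep, against 104, 82.4 and 91.0 CPM in TRIzol. The 3 AllPrep libraries stood close together and below all TRIzol libraries. Means were 54.3 ± 1.92 CPM in AllPrep and 92.3 ± 10.6 CPM in TRIzol (SD, n = 3 each), and the log2 fold change was -0.73 (SE 0.10). The Clk1 level per kilobase of the longest transcript was 1.16 ± 0.0832 times that of Clk4 in AllPrep and 1.19 ± 0.0761 times in TRIzol. The libraries of the methods overlapped in this ratio. They also overlapped in the Clk3 to Clk2 ratio, 1.34 ± 0.226 in AllPrep and 1.64 ± 0.119 in TRIzol. Clk1 and Clk4 were both chosen as lower in AllPrep, so nothing is read from their steady ratio. Such a ratio does not depend on how libraries are scaled.

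Clk3, a CLK kinase best known from testis, came next and was not level between the methods. It had 46.8, 41.3 and 37.5 CPM in AllPrep, against 63.0, 60.8 and 55.5 CPM in TRIzol, with no overlap. Its mean was 41.9 ± 4.64 CPM in AllPrep, 70.1% of the 59.8 ± 3.90 CPM in TRIzol (SD, n = 3 each), and its log2 fold change was -0.48 (SE 0.09). Within libraries, the Clk1 to Clk3 ratio per kilobase was 1.71, 1.67 and 1.90 in AllPrep and 2.26, 2.01 and 2.15 in TRIzol.

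Clk2, a CLK kinase also studied in liver metabolism, was the least abundant member. It had 22.4, 26.3 and 23.8 CPM in AllPrep and 27.9, 27.9 and 28.3 CPM in TRIzol, so the TRIzol libraries were almost level while the AllPrep libraries were spread below them. The log2 fold change was -0.18 (SE 0.09). The Clk1 to Clk2 ratio per kilobase was 2.35 ± 0.366 in AllPrep and 3.51 ± 0.366 in TRIzol (SD, n = 3 each). No AllPrep library reached a TRIzol library. Clk1 was chosen by this contrast, so its ratios to Clk2 and Clk3 are descriptions alone.

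The Srpk genes differed less than Clk1 and Clk4. Srpk1 had 55.9, 56.4 and 52.0 CPM in AllPrep and 70.3, 69.8 and 65.5 CPM in TRIzol, a log2 fold change of -0.29 (SE 0.07). Srpk2, the form prominent in neurons, was the most abundant member at 275, 277 and 252 CPM in AllPrep and 287, 283 and 295 CPM in TRIzol. Its log2 fold change of -0.07 (SE 0.07) was no larger than its error. The Srpk2 to Srpk1 ratio per kilobase was 3.75, 3.75 and 3.70 in AllPrep, above the 3.12, 3.10 and 3.43 in TRIzol.

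**Figure D2:**
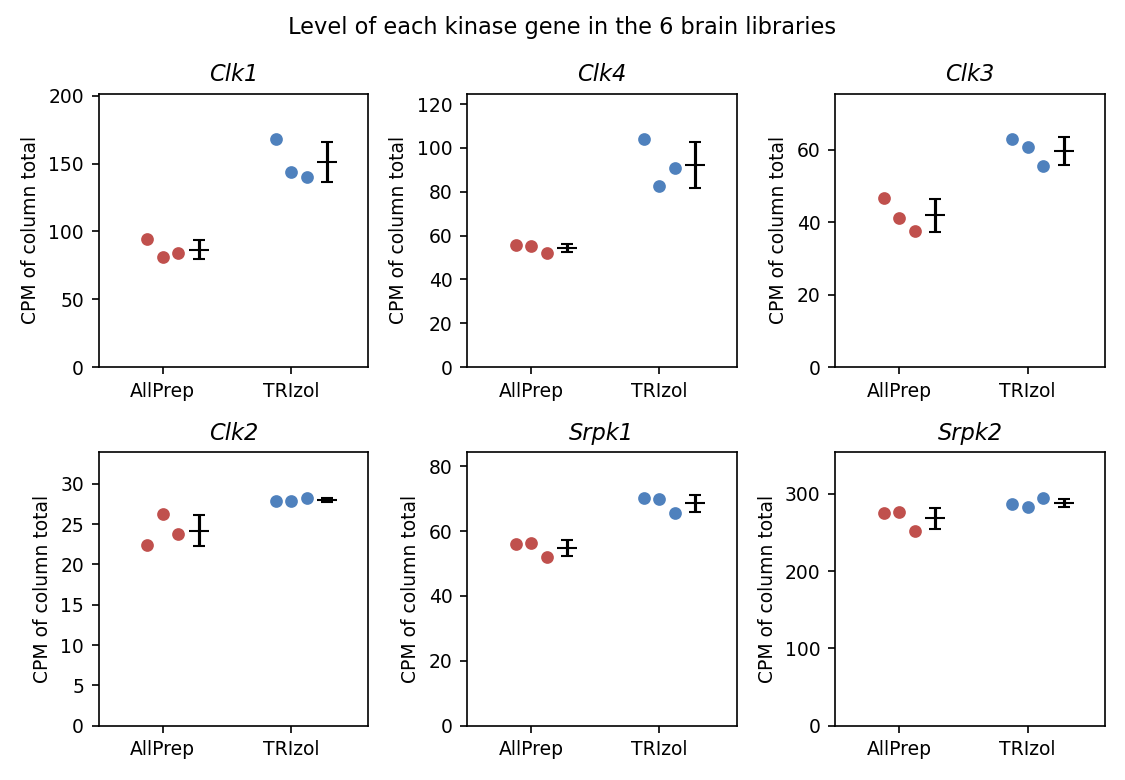
CPM of the library total (y axis, from 0) for each kinase gene in the 3 AllPrep and 3 TRIzol libraries. Coloured points are libraries in replicate order and black bars are the mean ± SD (n = 3); for Clk1 the AllPrep libraries lie at 81.2 to 94.3 CPM and the TRIzol libraries at 140 to 168 CPM.

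By mean CPM, AllPrep stood at 57.3% of TRIzol for Clk1, 58.8% for Clk4 and 70.1% for Clk3. It stood at 79.9% for Srpk1, 86.3% for Clk2 and 92.9% for Srpk2. Whether neighbours in this order differ was not tested. In CPM, all 6 genes had every AllPrep library below every TRIzol library, a pattern that 20.6% of the 16325 genes tested showed. Nothing is read from this count, since the same contrast chose the members. Among all genes tested, 2.25% had a lower log2 fold change than Clk1, 6.87% than Clk3 and 41.1% than Srpk2.

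Compared per kilobase of the longest transcript, Srpk2 had the highest level in both methods, at 41.3 ± 2.13 CPM per kb in AllPrep and 44.4 ± 0.876 in TRIzol. Clk1 followed at 17.8 ± 1.43 in AllPrep and 31.0 ± 3.05 in TRIzol, then Clk4 at 15.3 ± 0.542 and 26.1 ± 3.0 CPM per kb. Clk1 and Clk4 did not overlap in AllPrep but did in TRIzol. Srpk1 at 11.0 ± 0.479 CPM per kb and Clk3 at 10.1 ± 1.12 overlapped in AllPrep. In TRIzol the same 2 genes, at 13.8 ± 0.531 and 14.5 ± 0.944 CPM per kb, overlapped in the other order. Clk2 was lowest, at 7.63 ± 0.618 CPM per kb in AllPrep and 8.84 ± 0.0694 in TRIzol (SD, n = 3 each throughout). With the union of all annotated exons as the length, Srpk1 came last in AllPrep, at 4.42 CPM per kb against 4.56 for Clk2.

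Summed per kilobase, the 4 Clk genes reached 53.5, 50.6 and 48.5 CPM per kb in AllPrep, against 87.8, 76.5 and 76.9 in TRIzol. The 2 Srpk genes together had 52.3 ± 2.61 CPM per kb in AllPrep and 58.3 ± 0.455 in TRIzol (SD, n = 3 each). On this length, the longest transcript of any type with retained-intron ones included, the Clk and Srpk sums were about level in AllPrep. In each TRIzol library the Clk sum was the larger. With union exons as the length the Clk sum was the larger in both methods. It was 29.5 against an Srpk sum of 23.7 CPM per kb in AllPrep, and 46.8 against 26.3 in TRIzol. The order of the sums thus depended on the length. Coding lengths, 1443 to 1914 bases in the Clk genes and 1944 and 2046 in Srpk1 and Srpk2, were not used for levels. Clk1 and Clk4 made up 65.1% ± 1.09 of the Clk sum in AllPrep and 70.9% ± 1.69 in TRIzol, with no overlap. Nothing is read from this difference, since the same contrast chose Clk1 and Clk4. In bulk tissue, fewer cells of a type and less RNA per cell cannot be told apart.

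SR proteins, the substrates of these kinases, were examined as a list of 13 genes. Here and below, genes that fell or rose were lower or higher in AllPrep than in TRIzol. At an adjusted p below 0.05 over all genes (edgeR's quasi-likelihood test), 3 fell, 0 rose and 10 did not pass, where 1.28% of all genes tested fell. The median log2 fold change of the list was -0.23, with 12 negative values, against -0.011 over all genes. In CPM, 10 of the 13 had every AllPrep library below every TRIzol library, as had 20.6% of all genes tested. Srsf5, a splicing factor whose own RNA is known to keep introns, had 159, 155 and 148 CPM in AllPrep and 213, 223 and 218 CPM in TRIzol (log2 fold change -0.47, SE 0.06, adjusted p = 0.0246). Tra2a, an SR-like activator of exon inclusion, averaged 72.0 ± 3.4 CPM in AllPrep and 98.5 ± 4.84 CPM in TRIzol (log2 fold change -0.42, adjusted p = 0.0331). Srsf11 averaged 129 ± 7.51 and 171 ± 11.7 CPM in the same order and passed narrowly (adjusted p = 0.0497). With transcript length and GC trends removed it did not (adjusted p = 0.0722). Srsf1, the second most abundant of the list and the best known SRPK1 substrate, did not pass (146 ± 12.5 CPM in AllPrep against 173 ± 9.90 CPM in TRIzol samples, adjusted p = 0.175). Without TRIzol replicate 1 or TRIzol replicate 3, 1 gene of the list passed, and without any of the other 4 libraries 0 did.

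Many of the proteins listed as SR-related share the arginine-serine repeats of SR proteins and gather with them in nuclear speckles. Of the 26 genes in this list 6 fell, 0 rose and 20 did not pass the threshold. Beside them, 1.28% of all genes fell and 2.52% rose. Their median log2 fold change was -0.23. Pnisr, an SR-related protein, had 180, 172 and 173 CPM in AllPrep and 260, 267 and 275 CPM in TRIzol (adjusted p = 0.0162 in edgeR, log2 fold change -0.58, SE 0.06). Ccnl2, a cyclin L that partners splicing-linked kinases, averaged 63.3 ± 1.52 CPM in AllPrep and 96.7 ± 8.80 CPM in TRIzol (log2 fold change -0.58). Clasrp, named as a Clk4-associated protein, averaged 48.0 ± 2.83 CPM in AllPrep and 68.8 ± 1.85 CPM in TRIzol (log2 fold change -0.48, adjusted p = 0.0246). Luc7l3, a protein linked to the U1 particle, averaged 141 ± 5.99 and 202 ± 8.74 CPM in the same order. The remaining genes that fell were Snrnp70, a protein of the U1 particle, and Rsrp1 (log2 fold changes -0.48 and -0.36). Rsrp1 did not pass with length and GC trends removed (adjusted p = 0.0569 in edgeR). The abundant speckle scaffolds Srrm2 and Son had log2 fold changes of 0.10 and 0.12 and did not pass, and both turned negative, -0.16 and -0.12, with length and GC trends removed. The 6 calls became 5 without TRIzol replicate 1, 2 without TRIzol replicate 3 and 0 without any of the other 4 libraries.

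Other kinases that can act on splicing factors or belong to related families showed few calls. Of 13 tested genes 10 had positive log2 fold changes (median 0.20), 1 rose, 0 fell and 12 did not pass; Dyrk4 had too few counts to be tested. The gene that rose was Hipk1, a homeodomain-interacting kinase, with 168, 164 and 163 CPM in AllPrep and 136, 128 and 129 CPM in TRIzol (log2 fold change 0.37, adjusted p = 0.0333 in edgeR, where 2.52% of all genes rose). It did not pass with length and GC trends removed (log2 fold change 0.17, adjusted p = 0.258). With library size alone 2 genes of the list fell, Prpf4b and Srpk3, and 1 rose. With length and GC trends removed 1 fell and 0 rose, since Prpf4b, a kinase of the spliceosome, passed in the lower direction (log2 fold change -0.43, adjusted p = 0.0428). In the main test Prpf4b had 103 ± 4.10 CPM in AllPrep and 128 ± 4.98 CPM in TRIzol libraries, with an adjusted p of 0.0553. Srpk3, the third SRPK gene and best known from muscle, had 4.84, 5.84 and 4.61 CPM in AllPrep and 7.97, 8.56 and 7.47 CPM in TRIzol. Its log2 fold change of -0.62 (SE 0.14) did not pass (adjusted p = 0.0553); it is named here after its values were seen. Hipk1 passed in none of the 6 tests that left out 1 library, with adjusted p from 0.0505 to 0.112. Without TRIzol replicate 1 the list's 1 call was Hipk2, a relative of Hipk1, also named after its values were seen. Hipk2 had 101, 94.2 and 83.2 CPM in AllPrep and 30.9, 61.8 and 53.9 CPM in TRIzol, and in the main test it did not pass (log2 fold change 0.96, adjusted p = 0.0588).

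Genes that handle SR proteins or SRPK kinases, such as the importin Tnpo3 and phosphatases, were about level as a list. Of 11 genes 1 fell, 0 rose and 10 missed the threshold (1.28% of all genes fell and 2.52% rose). The median log2 fold change was 0.03. Safb2, a scaffold protein whose relative Safb binds SRPK1, was the one that fell, with 68.9 ± 1.61 CPM in AllPrep and 93.2 ± 3.78 CPM in TRIzol (log2 fold change -0.40, adjusted p = 0.0325 in edgeR). It passed in none of the 6 tests that left out 1 library. The abundant Ppp1cb, a phosphatase subunit, did not pass either, at a log2 fold change of 0.14.

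**Figure D3:**
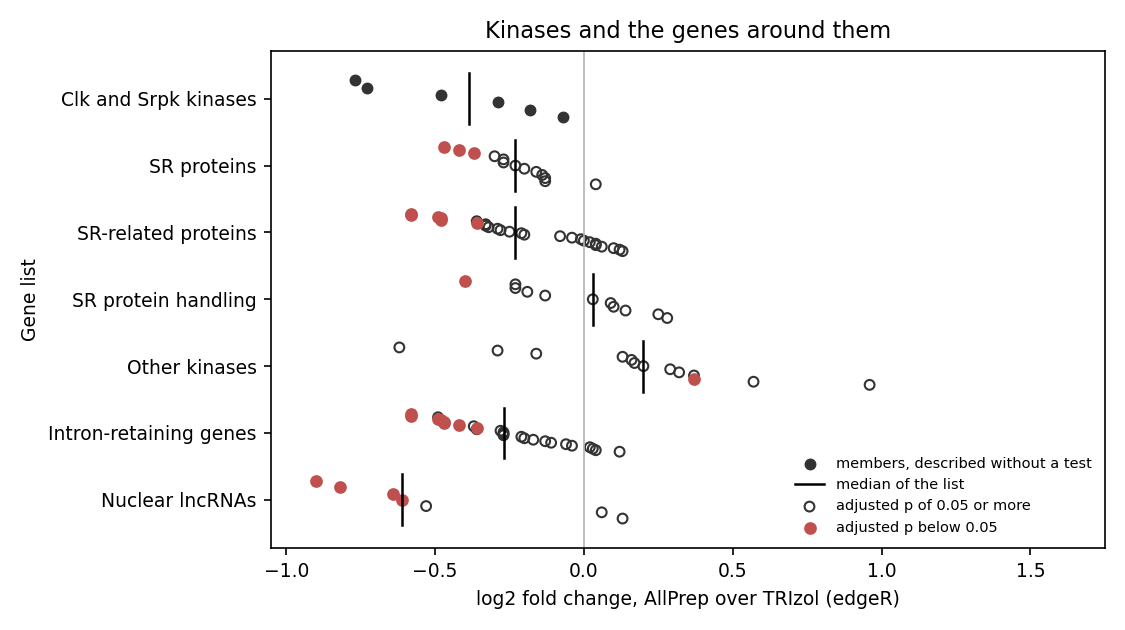
Log2 fold change, AllPrep over TRIzol (x axis), of the 6 kinase genes and of each list's tested genes (y axis). Black filled points are the 6 kinases, described without a test, red points passed an adjusted p below 0.05, open points did not, and vertical bars are medians, for example -0.23 for SR proteins and 0.20 for other kinases.

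A further list held 26 genes described as keeping introns in mouse or human cells; 15 of them also belong to the SR or SR-related lists. Of the 26, 8 fell, 0 rose and 18 did not pass, where 1.28% of all genes fell, and the median log2 fold change was -0.27 with 22 negative values. In addition to Srsf5, Tra2a, Pnisr, Ccnl2, Luc7l3, Snrnp70 and Rsrp1 above, Hnrnph1, an RNA-binding regulator of exon choice, fell, with 239 ± 5.46 CPM in AllPrep and 339 ± 21.4 CPM in TRIzol (log2 fold change -0.47, adjusted p = 0.0298 in edgeR). The abundant Ddx5, an RNA helicase, and Gabbr1, a GABA receptor subunit, had log2 fold changes of -0.06 and 0.02 and did not pass. Gabbr1 turned to -0.01 with library size alone and to -0.07 with length and GC trends removed. Without TRIzol replicate 1 the list had 5 calls, without TRIzol replicate 3 it had 2, and without any of the other 4 libraries it had 0.

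Long RNAs that stay in the nucleus were compared as a list of 7 tested genes. Of these 4 fell, 0 rose and 3 missed the threshold, against 1.28% of all genes that fell. The median log2 fold change was -0.61, with 5 negative and 2 positive values, and -0.91 with length and GC trends removed. Miat, a nuclear RNA of neurons, had 198, 175 and 244 CPM in AllPrep and 323, 324 and 336 CPM in TRIzol (log2 fold change -0.64, adjusted p = 0.0387 in edgeR). The others that fell were Snhg11, Meg3 and Mirg, with log2 fold changes of -0.82, -0.61 and -0.90; that of Meg3 was -1.02 with length and GC trends removed. Neat1, the RNA core of paraspeckles, averaged 89.8 ± 20.9 CPM in AllPrep and 132 ± 8.06 CPM in TRIzol and did not pass. Malat1, which gathers in the same speckles as SR proteins, had a log2 fold change of 0.06 (SE 0.18), which turned to -0.07 with length and GC trends removed. The list had 0 calls without AllPrep replicate 2 or TRIzol replicate 2, 1 without AllPrep replicate 1, and 2 without each of the other 3 libraries.

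The property shared by Clk1, Clk4 and the other members, an annotated retained-intron transcript, was then followed over all genes, leaving the 6 out. Of 8431 tested genes with such a transcript 153 (1.81%) fell and 231 (2.74%) rose, with a median log2 fold change of -0.025. Among 7782 tested genes without one, 53 (0.681%) fell and 179 (2.30%) rose, with a median of 0.009. In a split added after these values were seen, where such transcripts made up 50% or more of a gene's annotation, 62 of 2249 genes (2.76%) fell and 67 (2.98%) rose. The annotated genes were also more abundant, with a median level of 28.9 CPM against 9.80 CPM, and had smaller errors, with a median SE of 0.108 against 0.166. The part of abundance in the counts was not tested. The split of the annotated genes depended on scaling: 219 fell and 186 rose with library size alone, and 100 fell and 54 rose with length and GC trends removed. The split of all 16325 tested genes moved too. Among these, 305 fell and 343 rose with library size alone, and 126 fell and 138 rose with those trends removed. Without 1 library, 1 to 118 of the annotated genes passed in either direction. The count was 4, 12 and 10 without AllPrep replicates 1, 2 and 3 in turn, and 82, 1 and 118 without TRIzol replicates 1, 2 and 3.

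**Figure D4:**
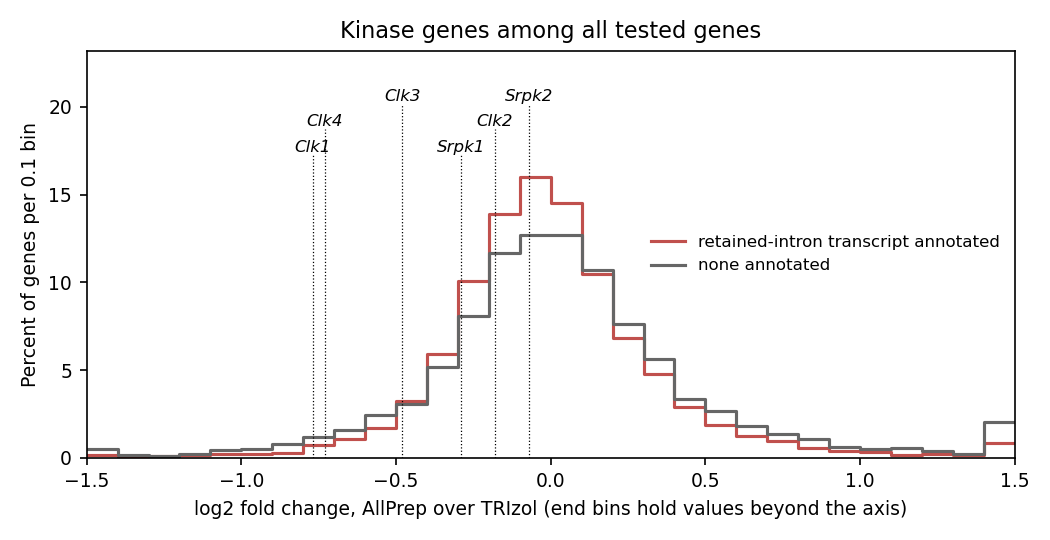
Share of tested genes (y axis, percent per bin of 0.1) by log2 fold change, AllPrep over TRIzol (x axis), for genes with (red) and without (grey) an annotated retained-intron transcript; the 6 kinases are left out of both and marked by dotted lines. Clk1 at -0.77 and Clk4 at -0.73 lie in the lower tail, Srpk2 at -0.07 near the centre.

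The genes whose levels followed Clk1 and Clk4 most closely over the 6 libraries were listed among 9943 named genes with a mean of at least 10 CPM. For Clk1 they were Hars2, a mitochondrial histidyl-tRNA synthetase, Sptlc1, of sphingolipid synthesis, Ddx55, an RNA helicase, Trir, and Sf3b1, a core splicing factor that binds the branch site, with Pearson's r of log2(CPM + 1) from 0.9966 to 0.9983. For Clk4 they were Hnrnpdl, an RNA-binding protein that also keeps introns, Ints13, of the Integrator complex, Tarbp1, Inip and Ccnl2, with r from 0.9952 to 0.9989. Sf3b1 had 312 ± 7.53 CPM in AllPrep and 369 ± 9.25 CPM in TRIzol (SD, n = 3 each), a much smaller difference than Clk1 (log2 fold change -0.21). Hnrnpdl had 159 ± 2.68 CPM in AllPrep and 198 ± 8.39 CPM in TRIzol. With 6 libraries in 2 groups, such values rest largely on the difference between the methods. Clk1 and Clk4 had r = 0.98 with each other, Clk1 and Clk3 0.97, Clk1 and Srpk1 0.96, and Clk1 had 0.74 with both Clk2 and Srpk2.

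Across the series, library totals ran from 36395330 to 50937858 counts, and every member had at least 987 counts in each library. In all, 621 of 16325 tested genes changed (3.80%), 412 higher and 209 lower in AllPrep. Leaving out AllPrep replicates 1, 2 and 3 in turn left 13, 27 and 28 such genes, and leaving out TRIzol replicates 1, 2 and 3 left 147, 2 and 205. The share of higher genes was 66.3%, against 52.9% with library size alone and 52.3% with length and GC trends removed. Markers of brain cells were present in every library. Their summed levels differed between the methods in several lists: 4 neuronal markers had 4517 to 5250 CPM in AllPrep and 5447 to 6135 CPM in TRIzol, and 4 oligodendrocyte markers 2377 to 4149 and 4425 to 5341 CPM in the same order, though none of these 8 genes passed. Of 3 ependyma markers 2 rose, with sums of 17.7 to 23.3 CPM in AllPrep and 7.36 to 12.7 CPM in TRIzol. The 4 choroid plexus markers had 583 to 1164 CPM in AllPrep and 14 to 20.5 CPM in TRIzol, and all 4 rose. Of 4 astrocyte markers 1 rose, with sums of 908 to 1008 CPM in AllPrep and 678 to 901 CPM in TRIzol. No marker was at 0 throughout, and the part of these cell types in the kinase differences was not tested. Marker levels and extraction method differed together between these libraries, so their parts cannot be told apart.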

How the data were processed

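The authors deposited raw counts per gene for 6 libraries. The submitters' processing notes name the build GRCm39 and the tools STAR 2.7.9a, featureCounts, cutadapt, FastQC 0.11.9 and limma 3.60.6. The sources used here do not give settings, annotation release or strand, so whether reads in annotated retained introns were counted is unknown, and antisense or overlapping reads cannot be told apart. Per the labels, libraries were made by T7 amplification and read as 150-base pairs. Rows repeating 1 Ensembl ID with identical counts (108 rows) were removed. CPM used the column total. The test was the two-sided quasi-likelihood one of edgeR 4.0.16 (R 4.3.3), after filterByExpr and TMM, with p-values adjusted by Benjamini-Hochberg and a threshold of 0.05, and the SE is the log2 fold change over the square root of F. Lengths, GC content and transcript types came from GENCODE vM21 (GRCm38) for 99.4% of tested genes; no coordinates of the 2 builds were combined. Sequences were aligned with Biopython 1.88. Transcript sequences are GENCODE's, and proteins were not used here.

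The members and lists were chosen with earlier results of these data known. Genes named were the 6 members, in each list up to 4 past the threshold by p and the 2 most abundant, and the 5 nearest patterns each of Clk1 and Clk4. Hnrnph1, Snrnp70, Rsrp1, Neat1, Malat1, Srpk3 and Hipk2 were named after their values were seen. Rian was not matched. The result of 1 gene that this rule names is not reported here. The r of deviations between same-numbered libraries was -0.12, -0.05 and 0.17 for numbers 1, 2 and 3. It was 0.26 for AllPrep replicate 1 with TRIzol replicate 2, and 0.17 for AllPrep replicate 2 with TRIzol replicate 1. The remaining pairs had -0.16 to -0.02. No label says what the number marks, so it was not used as a block. Whether libraries of the 2 methods share a source is unknown. Every pair of libraries of 1 method differed by more than sampling noise, with chi-square over its degrees of freedom from 14.3 upward. Of counts from 1 to 20, 64.2% to 70.9% were even. Tested on simulated data of AllPrep against TRIzol with 16142 genes, the fit called 29.7% of simulated 1.5-fold changes, 71.2% of 2-fold and 90.6% of 4-fold ones. Of all its calls there, 6.06% were genes simulated without a change, at the adjusted p threshold of 0.05. Alternatives were scaling by library size alone, DESeq2 1.42.0, its size factors in edgeR, other filters, halved counts, the block, length and GC trends removed (mgcv 1.9.3), and each library left out.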

Additional observations from a re-analysis of the deposited data

How the results depend on the processing

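All 6 members had negative log2 fold changes as reported and under all 14 alternatives, from -0.82 to -0.68 for Clk1, -0.81 to -0.64 for Clk4, -0.55 to -0.41 for Clk3, -0.34 to -0.26 for Srpk1, -0.25 to -0.11 for Clk2 and -0.14 to -0.03 for Srpk2. Leaving out 1 library gave -0.82 to -0.68, -0.81 to -0.64, -0.55 to -0.41, -0.32 to -0.26, -0.25 to -0.11 and -0.10 to -0.03 in the same order. The value of -0.14 for Srpk2 came with length and GC trends removed. With the union of exons as length, levels per kb in AllPrep and TRIzol were 10.6 and 18.5 (Clk1), 9.37 and 15.9 (Clk4), 4.96 and 7.07 (Clk3), 4.56 and 5.29 (Clk2), 4.42 and 5.54 (Srpk1), and 19.3 and 20.7 (Srpk2), since that length is longer for each. TMM scaling moved Clk2 in TRIzol to 8.74.

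Counts of calls depended more on the test. DESeq2 called 2095 genes in all, 6 other kinases, 6 SR proteins, 11 SR-related, 3 handling, 14 intron-keeping and 1252 retained-intron annotated genes. With the replicate number as a block these counts were 236, 0, 0, 2, 0, 2 and 132, with 2 nuclear RNAs; the numbers share no known source. With length and GC trends removed, 264 genes and 154 annotated ones passed. Other kinases gave 3 calls with library size alone (2 lower, 1 higher) and 3 with no filter (0 lower, 3 higher). Leaving out 1 library gave 2 to 205 genes in all, 0 to 1 other kinases, 0 to 1 SR proteins, 0 to 5 SR-related, 0 to 0 handling, 0 to 5 intron-keeping, 0 to 2 nuclear RNAs and 1 to 118 annotated genes. Of 42 single genes recomputed, signs turned for 4, none of which had passed: Gabbr1 (-0.01 with library size alone; -0.01 to 0.05 with 1 library left out, lowest without AllPrep replicate 2 or TRIzol replicate 2; -0.07 with length and GC trends removed), Malat1 (-0.07 with those trends removed; -0.10 to 0.24 with 1 library left out, negative without AllPrep replicate 3 or TRIzol replicate 2), Srrm2 (-0.16) and Son (-0.12), both with those trends removed. The cause was not tested. At this depth and with 3 libraries per method, small changes were the hardest to call.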
